A study of Mus musculus with 6 samples.

Results

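Sucnr1, Ffar1, Ffar2, Ffar3, Hcar1, Gpbar1, Gpr119 and Gpr35 encode G protein-coupled receptors for succinate and nutrient-derived metabolites. These 8 genes, chosen by the ligands of their receptors, were followed among the 23420 genes measured by RNA sequencing of sorted ileal tuft cells. The 6 libraries formed 1 group, each labelled as a replicate of C57BL/6J mice of genotype Gfi1b-eGFP, heterozygous for the reporter allele in every library by the study's methods. GFP was driven by the Gfi1b locus, which is also active in blood cells, and cells were sorted as GFP+, EpCam+, CD45- and propidium iodide-negative. Whether animals were pooled is not given in the sources used here, and other cell types, genotypes or treatments were not analysed here.

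Nutrient receptors let epithelial cells sense what microbes and digestion release into the lumen. Tuft cells, the rare chemosensory cells that release IL-25, are known for responding to succinate from protists and bacteria through SUCNR1, with the cation channel TRPM5 acting downstream. FFAR2 and FFAR3 bind short chain fatty acids, FFAR1 long chain fatty acids, HCAR1 lactate, GPBAR1 bile acids and GPR119 lipid amides such as oleoylethanolamide, while kynurenic acid is among the ligands described for GPR35. In the gut, FFAR1, FFAR2, FFAR3, GPBAR1 and GPR119 are best known from hormone-secreting enteroendocrine cells.

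Sucnr1 and Ffar3 were the abundant receptors of the set, and their genes lie apart in the genome. In GENCODE M21 on GRCm38, Sucnr1 (ENSMUSG00000027762.6) lies on chromosome 3 from 60081869 to 60087566 on the plus strand. Ffar3 (ENSMUSG00000019429.7) lies on chromosome 7 from 30854330 to 30856178 on the minus strand, inside a cluster of fatty acid receptor genes. Ffar2 ends the cluster on one side, at a gap of 30554 bases from Ffar3, and Ffar1 on the other, at a gap of 1211 bases. The gap to Ffar1 includes the window before the Ffar3 start. Gpr35 (ENSMUSG00000026271.15) lies on chromosome 1 from 92950865 to 92986391 on the plus strand. The 250 bases before the RefSeq start of Sucnr1 and Ffar3 (GRCm38.p6) are shown because these 2 genes carry the main result, and they are written 5′ to 3′ on the strand of the gene. Capitals mark the octamer ATGCAAAT, the motif bound by POU factors, a family that includes the tuft cell regulator POU2F3.

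Sucnr1, chr3:60081619-60081868, plus strand: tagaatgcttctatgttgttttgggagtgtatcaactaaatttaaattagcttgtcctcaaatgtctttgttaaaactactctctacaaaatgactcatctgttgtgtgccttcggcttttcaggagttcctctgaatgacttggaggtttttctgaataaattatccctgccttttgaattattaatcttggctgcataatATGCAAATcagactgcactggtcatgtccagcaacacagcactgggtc
Ffar3, chr7:30856179-30856428, minus strand: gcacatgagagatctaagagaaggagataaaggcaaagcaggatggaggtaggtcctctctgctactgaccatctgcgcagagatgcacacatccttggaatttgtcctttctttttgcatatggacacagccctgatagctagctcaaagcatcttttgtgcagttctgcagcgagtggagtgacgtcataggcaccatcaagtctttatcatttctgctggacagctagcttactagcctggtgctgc

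The octamer stood from base 48 to base 41 before the start of Sucnr1 and was found in 1 of 12 windows of the 8 genes, searched on both strands. Of all 32851 promoter windows of that length, 526 (1.60%) held it. The search was chosen after the levels were known, and a match in these letters is no evidence of binding.

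The levels fell into a pair of abundant genes, 1 gene of low level and 5 genes at or close to 0. Levels are in TPM, the share of all transcripts of a library that a gene takes up on a scale of 1000000, which is corrected for transcript length. Comparing genes on this scale assumes reads along whole transcripts, as in the preparation that the methods describe, and a 3' preparation, which the labels name as well, would break that assumption. The longest annotated transcripts of Sucnr1 and Ffar3 have similar lengths, 1571 and 1625 bases. In replicates 1 to 6, Sucnr1 had 577.3, 547.3, 285.8, 425.9, 295.4 and 261.1 TPM (398.8 ± 139, SD, n = 6). Ffar3 had 482.8, 413.7, 265.9, 307.6, 234.3 and 230.6 TPM (322.5 ± 104, SD, n = 6). Both were highest in replicate 1 and lowest in replicate 6, and their ranges overlapped across libraries although their order did not change within any library. Gpr35 had 8.56, 3.93, 11.5, 1.45, 6.82 and 14.6 TPM (7.81 ± 4.83, SD, n = 6), far below both in each library and highest in replicate 6, where Sucnr1 and Ffar3 were lowest.

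In replicates 1 to 6, Ffar2 was given as 0, 0, 0.19, 0, 6.98 and 0.61 TPM, so that 1 library held nearly all of its signal. Gpbar1 reached 0.48 TPM in replicate 1 and 2.32 TPM in replicate 2, and the other 4 libraries had it at 0. No library held both of these genes above 0. Ffar1, Gpr119 and Hcar1, which the table lists under its older symbol Gpr81, were at 0 in all 6 libraries. The values keep no sequencing depth, so a listed 0 has no detection limit.

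**Figure D1:**
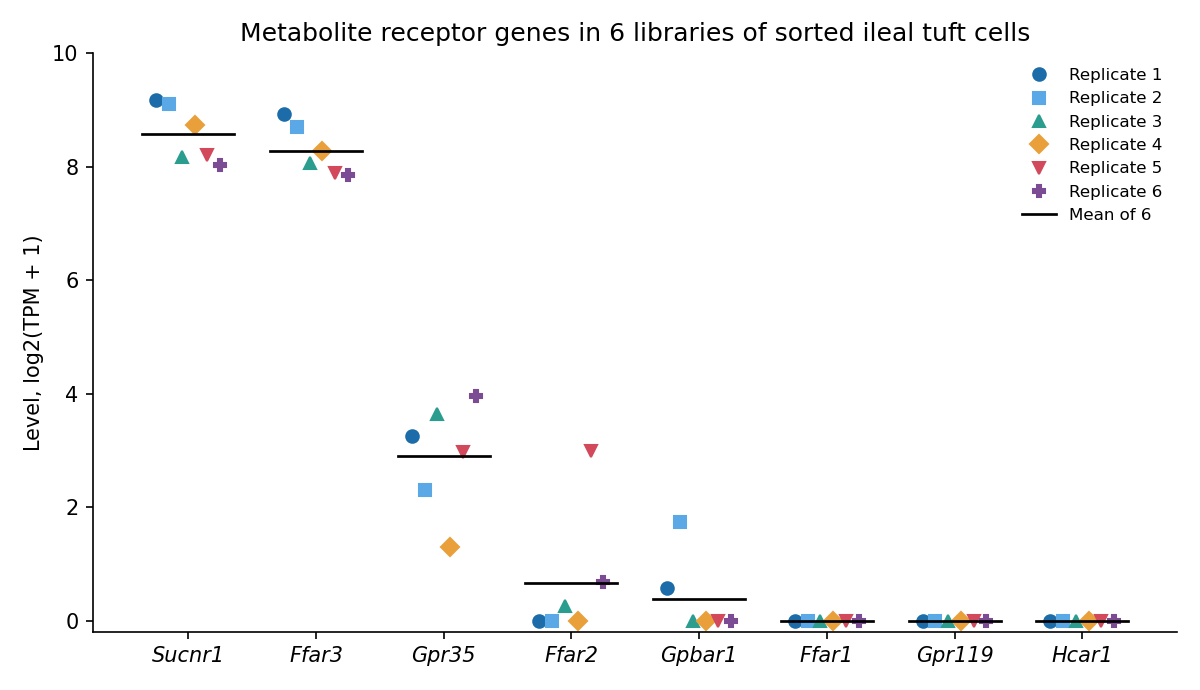
Level of each of the 8 receptor genes (y axis, log2(TPM + 1)) in the 6 libraries, ordered on the x axis by mean, with 1 symbol per replicate and a black line at the mean of 6. Sucnr1 and Ffar3 sit near the top in every library, Gpr35 spreads below them, and Ffar2 and Gpbar1 rise off 0 mainly through replicates 5 and 2.

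Of the 8 genes, 3 (Sucnr1, Ffar3 and Gpr35) were listed above 0 in every library, against 47.2% of all genes in the table. The same number were listed at 0 in every library (Ffar1, Gpr119 and Hcar1), against 32.9% of all genes. A mean level of 1 TPM or more was reached by 4 members, against 51.4% of all genes, and Ffar2 reached it only through replicate 5. The shares of members were thus close to those of the whole table, and it was the height of Sucnr1 and Ffar3 that stood out. Among the genes above 0 in a library, Sucnr1 lay between the 96.7th and the 98.4th percentile and Ffar3 between the 96.5th and the 98.0th. Gpr35 lay between the 16.9th and the 59.8th percentile. The 8 genes together had 506.8 to 1069 TPM per library, of which Sucnr1 and Ffar3 made up 97.0% to 99.8%.

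Sucnr1 exceeded Ffar3 in 6 of 6 libraries, by a small margin that varied in size. Sucnr1 was 1.196, 1.32, 1.07, 1.38, 1.26 and 1.13 times Ffar3 in replicates 1 to 6. Sucnr1 made up 50.7% to 57.9% of the summed TPM of the 8 genes and Ffar3 41.9% to 47.2%. On the log2(TPM + 1) scale the difference was 0.29 ± 0.14 (SD, n = 6; two-sided exact sign-flip permutation test, p = 0.03125, the smallest that 6 libraries allow; adjusted p = 0.0460 over 25 pairs of members). With a fixed smallest p, the adjusted p depends on how many of the 25 pairs reach it. Without pairing the values by library, the same difference did not pass (exact Mann-Whitney test, p = 0.310, adjusted p = 0.368). The margin was thus smaller than the variation of either gene from library to library, 2.21-fold for Sucnr1 and 2.09-fold for Ffar3, and was seen only within libraries.

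**Figure D2:**
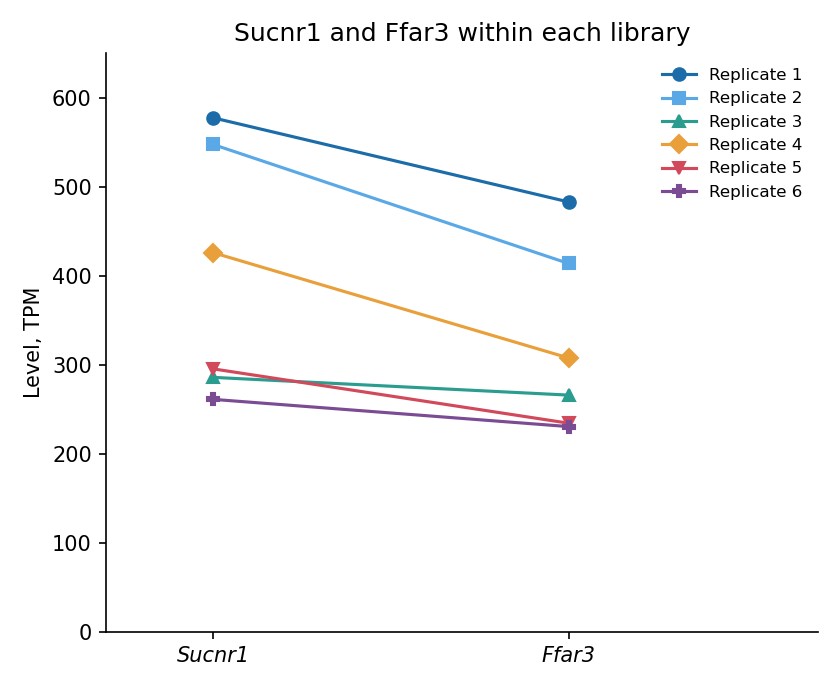
TPM of Sucnr1 and Ffar3 (y axis, from 0) in the 6 libraries, with a line joining the values of each replicate. Every line falls from Sucnr1 to Ffar3, and replicates 1 and 2 lie highest for both genes.

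The other steps in the order of levels were larger. Sucnr1 exceeded Gpr35, the next gene in the order after Ffar3, by 5.67 ± 1.31 and Ffar3 exceeded it by 5.38 ± 1.18 on the log2(TPM + 1) scale (SD, n = 6; exact sign-flip permutation test, adjusted p = 0.0460 for both). In TPM, Sucnr1 was 17.9 to 294 times Gpr35 and Ffar3 was 15.8 to 212 times Gpr35. Within the short chain fatty acid receptors, Ffar3 exceeded its paralog Ffar2 by 7.62 ± 1.48 (adjusted p = 0.0460 by the exact sign-flip test), higher in 6 of 6 libraries, replicate 5 included. The long chain fatty acid receptor gene Ffar1, the nearer paralog of Ffar3 on the chromosome, was at 0 in each library, for a difference of 8.28 ± 0.44 on the same scale, a size that depends on the pseudocount of 1. Of the 28 possible pairs of members, 25 had a gene above 0 and were tested, and 17 passed with an adjusted p of 0.0460 (exact sign-flip test). Of these 17, 9 set a gene above 0 in every library against one at 0 in every library, a contrast that cannot fail this test. These 9 also enter the adjustment and lower the adjusted p of the other pairs, that of Sucnr1 with Ffar3 included. Among the 10 pairs of the 5 genes above 0 in any library, a choice made after the data were seen, 8 passed, each with an adjusted p of 0.0391 by the exact sign-flip test.

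Lower in the order, differences between neighbours did not pass the paired test. Gpr35 exceeded Gpbar1 in 6 of 6 libraries, by 2.52 ± 1.33 with a pseudocount of 1 and by 7.03 with 0.01 (SD, n = 6; exact sign-flip test, adjusted p = 0.0460), but exceeded Ffar2 in 5 of 6, by 2.25 ± 1.38 (p = 0.0625, adjusted p = 0.0868 by the same exact test, and adjusted p = 0.0223 by the exact Mann-Whitney test without pairing). Replicate 5 was the exception, with 6.98 TPM of Ffar2 beside 6.82 TPM of Gpr35. Ffar2 and Gpbar1 differed by 0.27 ± 1.57 (exact sign-flip test, adjusted p = 0.6875). Neither passed the test against the 3 genes at 0, with adjusted p of 0.298 for Ffar2 and 0.521 for Gpbar1 by the exact sign-flip test.

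The low values of Ffar2 and Gpbar1 came from libraries that also differed in other genes. Replicate 5, with 6.98 TPM of Ffar2, held 40.4 TPM of Chga, 59.6 TPM of Chgb and 11.0 TPM of Tph1, enteroendocrine genes that were all highest there. Other genes of that cell class went the other way, with Pyy, Sst and Neurod1 at 0 in replicate 5 and Gcg at 8.36 and Gip at 1.45 TPM, against 45.7 and 52.6 TPM in replicate 3. The lymphocyte granzyme gene Gzma was at 140.7 TPM in replicate 5. Gzma was as high in replicate 6, at 157.7 TPM, where Ffar2 was at 0.61 TPM. The 12 enteroendocrine markers together had 487.6 TPM in replicate 5, within the range of 387.4 to 538.9 TPM over libraries, and most of that was Sct, at 358.2 TPM. The other 11 markers had 12.2, 65.2, 155.1, 100.3, 129.5 and 33.8 TPM together in replicates 1 to 6, highest in replicate 3 and next in replicate 5, and 1 of them, Insl5, was at 0 in every library. The 9 myeloid markers, of interest because Ffar2 is well known from neutrophils, had 20.4 TPM together in replicate 5, the lowest of a range of 20.4 to 46.0 TPM, and the neutrophil genes S100a8 and S100a9 were at 0 in every library. In replicate 2, where Gpbar1 was highest, Gcg, the proglucagon gene of L cells, was at 45.5 TPM, but it was at 45.7 TPM in replicate 3, where Gpbar1 was listed at 0. The part of these cell types in the values of Ffar2 and Gpbar1 was not tested.

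The sorted cells held tuft cell transcripts at high level, as their label states. All 13 tuft cell markers were above 0 in each library, and together they had 7131 to 11738 TPM. Products of other epithelial cells were present too, with 3578 to 21516 TPM for 7 Paneth cell genes, 1053 to 5118 TPM for 7 goblet cell genes, 7703 to 16268 TPM for 8 enterocyte genes and 335.9 to 812.7 TPM for 6 crypt stem cell genes. Of 9 lymphocyte markers 8 were found in the table, at 125.9 to 302.4 TPM together. Single genes carried much of that sum, Ptprc in replicate 1 (170.85 of 201.45 TPM) and Gzma in replicate 6 (157.73 of 302.41 TPM). Rn45s, the ribosomal RNA precursor, took 23.1% to 32.6% of all TPM, and Gm20594 separated replicates 1 to 3 (15588 to 21283 TPM) from replicates 4 to 6 (51805 to 56441 TPM). Their part in the receptor levels across libraries was not tested, and in bulk samples fewer cells of a type and less RNA per cell cannot be told apart.

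Set among the tuft cell markers, Sucnr1 and Ffar3 were of middle rank. Both exceeded 5 of the 13 markers in 6 of 6 libraries, namely Pou2f3 and Gfi1b, transcription factor genes of tuft cells, Gnat3 (the taste G protein gustducin), Chat (acetylcholine synthesis) and Il25, the cytokine that activates type 2 innate lymphoid cells. Both were below Trpm5, Alox5ap, Rgs13, Dclk1 and Avil in every library. They changed places between libraries with Ltc4s, of leukotriene synthesis, and with Il17rb, the IL-25 receptor subunit gene. Sucnr1 was 0.233 to 0.411 times Trpm5 in the same library and Ffar3 was 0.206 to 0.344 times Trpm5. Pou2f3, the factor gene on which tuft cells depend, had 128.4 to 246.7 TPM.

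Across libraries, Sucnr1 and Ffar3 varied with the tuft cell markers by one summary of the list and less clearly by another. The median of the 13 markers is the level of 1 gene per library. That gene was Ltc4s in replicates 1, 2, 3 and 5 and Il17rb in replicates 4 and 6. The median of the 13 markers gave Pearson r = 0.660 for Sucnr1 (exact permutation p = 0.144, adjusted p = 0.425 over 6 relations) and Spearman rho = 0.714 (exact p = 0.136, adjusted p = 0.408). For Ffar3 it gave r = 0.700 (exact permutation p = 0.125, adjusted p = 0.425) and rho = 0.771 (exact p = 0.103, adjusted p = 0.408). Neither passed 0.05. Without replicates 2 and 6, the farthest from the middle of the list, r was 0.244 for Sucnr1 and 0.519 for Ffar3. Within replicates 1 to 3 it was 0.609 and 0.454, and within replicates 4 to 6 it was -0.0100 and -0.203 for Sucnr1 and Ffar3. With values centred within each of these sets of replicates, r was 0.463 for Sucnr1 and 0.328 for Ffar3 (exact permutation p = 0.556 and 0.694). After median-of-ratios rescaling of the libraries, r was 0.510 and 0.517.

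With the mean of the same markers in place of their median, r was 0.964 for Sucnr1 and 0.953 for Ffar3 (exact permutation p = 0.00694, adjusted p = 0.0208 for both). Spearman's rho was 0.943 for Sucnr1 (exact p = 0.0167, adjusted p = 0.1) and 0.829 for Ffar3 (exact p = 0.0583, adjusted p = 0.175), neither of which passed after adjustment. Without replicates 1 and 2, the farthest from the middle of this score, r was 0.872 for Sucnr1 and 0.613 for Ffar3, within replicates 1 to 3 it was 0.993 and 0.998, and within replicates 4 to 6 it was 0.985 and 0.9998. The relation of the levels thus depended on how the list was summarised. Receptors and markers share the scaling of a library, and no value after rescaling or centring is given for the mean. Gpr35 had r = -0.115 with the median of the list (exact permutation p = 0.818, adjusted p = 0.982) and -0.347 with its mean (exact permutation p = 0.507). Without the 2 libraries farthest from the middle of each score, r for Gpr35 was 0.874 with the median and -0.902 with the mean. Within replicates 1 to 3 it was -0.996 and -0.584, and within replicates 4 to 6 it was -0.122 and -0.953. With the median of the enteroendocrine markers r was -0.548 for Sucnr1, -0.565 for Ffar3 and 0.00230 for Gpr35 (exact permutation p = 0.283, 0.244 and 0.999), and none of the 6 relations with list medians passed 0.05 before or after adjustment.

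**Figure D3:**
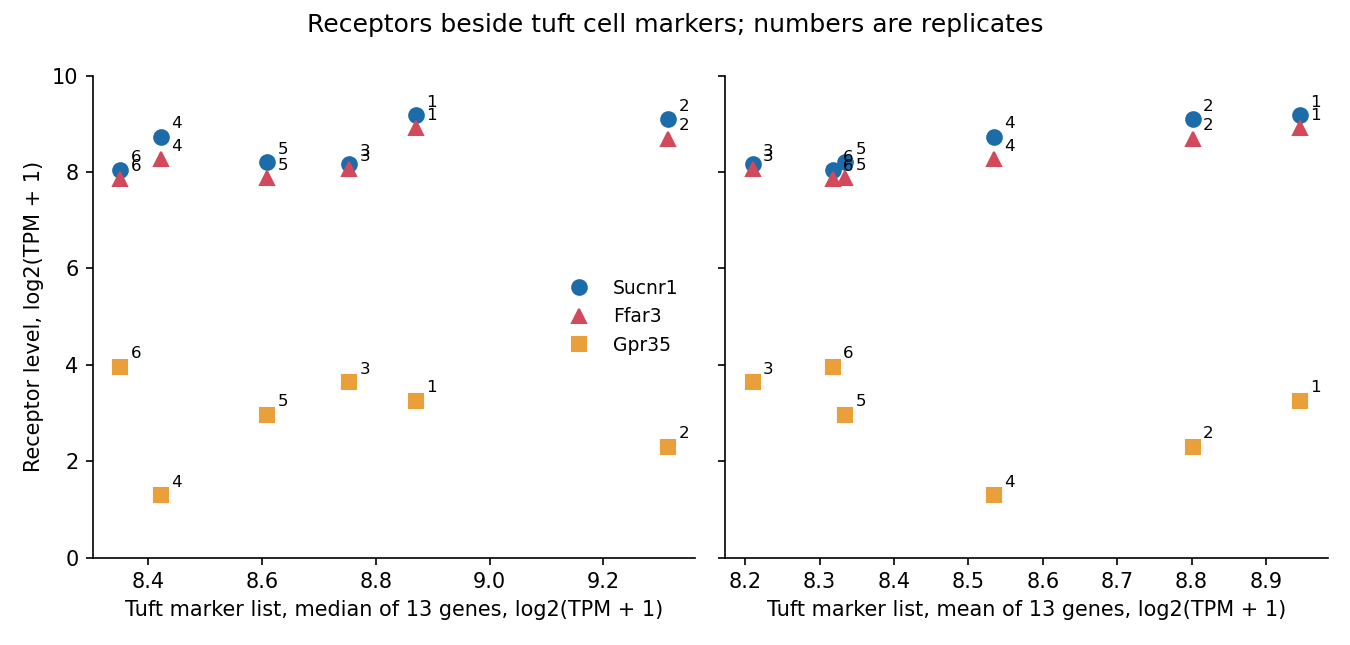
Level of Sucnr1, Ffar3 and Gpr35 (y axis, log2(TPM + 1)) in each library against the median (left) and the mean (right) of 13 tuft cell markers (x axes, log2(TPM + 1)), with points numbered by replicate. Sucnr1 and Ffar3 follow the mean (r = 0.964 and 0.953) more closely than the median (r = 0.660 and 0.700). Gpr35 lies lower, with r = -0.347 for the mean and -0.115 for the median over the 6 libraries.

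Other genes shared the pattern of these receptors over the 6 libraries, given here as a description among the 6985 genes whose mean was 10 TPM or more. The genes most like Sucnr1 were Pxk (r = 0.993), Dsp (r = 0.993), which encodes the desmosomal protein desmoplakin, and 1110007C09Rik (r = 0.991). In replicates 1 to 6, Pxk was listed at 75.9, 67.1, 37.4, 56.95, 40.4 and 37.6 TPM, following Sucnr1 in its highs and lows. Those most like Ffar3 were Itfg3 (r = 0.995), Ndrg1 (r = 0.994) and Ptprc (r = 0.993). Ptprc encodes CD45, the antigen used to gate cells out, and was listed at 74.2 to 170.9 TPM, highest in replicate 1, where Gzma was lowest at 10.4 TPM. Sucnr1 and Ffar3 had r = 0.966 with each other, which put Ffar3 38th among the genes like Sucnr1 and Sucnr1 53rd among those like Ffar3. The points share a library and its scaling, and 230 genes had r of at least 0.9 with Sucnr1 and 307 with Ffar3. The genes most like Gpr35 were Prkra (r = 0.971), Gm11545 (r = 0.966) and Thoc1 (r = 0.965), and those most like Ffar2 were Mnf1 (r = 0.964), Zfp260 (r = 0.949) and Ifih1 (r = 0.927), all highest in replicate 5.

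The study turned on Tas1r3, the shared subunit gene of the sweet and umami receptors, and Sucnr1 was far more abundant. Sucnr1 was 51.5 to 476 times Tas1r3 within a library (median 89.8), and Ffar3 was 38.9 to 443 times Tas1r3 (median 73.4). Tas1r3 had 10.63 TPM in replicate 2 and between 0.6 and 5.74 TPM elsewhere. Both highest ratios came from replicate 3, where Tas1r3 was lowest, and the next highest were 131 and 115 in replicate 6. On the log2(TPM + 1) scale Sucnr1 exceeded Tas1r3 by 6.31 ± 0.66 (SD, n = 6; exact sign-flip permutation test, adjusted p = 0.03125 over 2 tests), higher in 6 of 6 libraries. That p is the smallest that 6 libraries allow, and the test was chosen with earlier results known.

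A list of 28 further receptor genes for metabolites and lipids placed the pair in a wider setting. All 28 were below Ffar3, and so below Sucnr1, in 6 of 6 libraries. Most genes of the table were too, as Ffar3 lay between the 96.5th and the 98.0th percentile of genes above 0. Of the 28, 8 were at 0 in every library, against 32.9% of all genes, so the count says little about receptors. The most abundant of the 28 was Lpar6, a lysophosphatidic acid receptor gene, at 38.0, 40.0, 39.0 and 39.6 TPM in replicates 1, 2, 4 and 6. In replicates 3 and 5 it was Lpar5, of the same ligand, at 28.4 and 19.0 TPM. Sucnr1 was 6.59 to 15.6 times the most abundant of the 28 in its library and Ffar3 was 5.82 to 12.7 times it. The difference for Sucnr1 was 3.49 ± 0.46 on the log2(TPM + 1) scale (SD, n = 6; exact sign-flip permutation test, adjusted p = 0.03125), in the same direction in 6 of 6 libraries. Here too the p is the smallest that 6 libraries allow.

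Gpr35 had more company. Lpar6 (31.1 ± 12.6 TPM), Lpar5 (25.6 ± 6.52) and Gpr18 (18.0 ± 10.4, SD, n = 6 each) exceeded Gpr35 in every library. Adora1, an adenosine receptor gene, had 11.1 ± 3.31 TPM and exceeded it in 3 of 6. Ffar4, the other long chain fatty acid receptor gene, had 5.79 ± 1.81 TPM and was above 0 in 6 of 6 libraries, where Ffar1 was listed at 0 in all. Of the rest, Lpar1 (6.22 ± 4.82), Gpr55 (4.85 ± 3.86), S1pr2 (1.21 ± 1.18) and the cannabinoid receptor gene Cnr2 (1.09 ± 0.770 TPM) averaged 1 TPM or more, and the other 19 less. Hcar2, the butyrate and niacin receptor gene related to Hcar1, reached 0.45 TPM in replicate 2 alone and was at 0 elsewhere, and the alpha-ketoglutarate receptor gene Oxgr1 reached 0.05 TPM in replicate 4 alone.

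**Figure D4:**
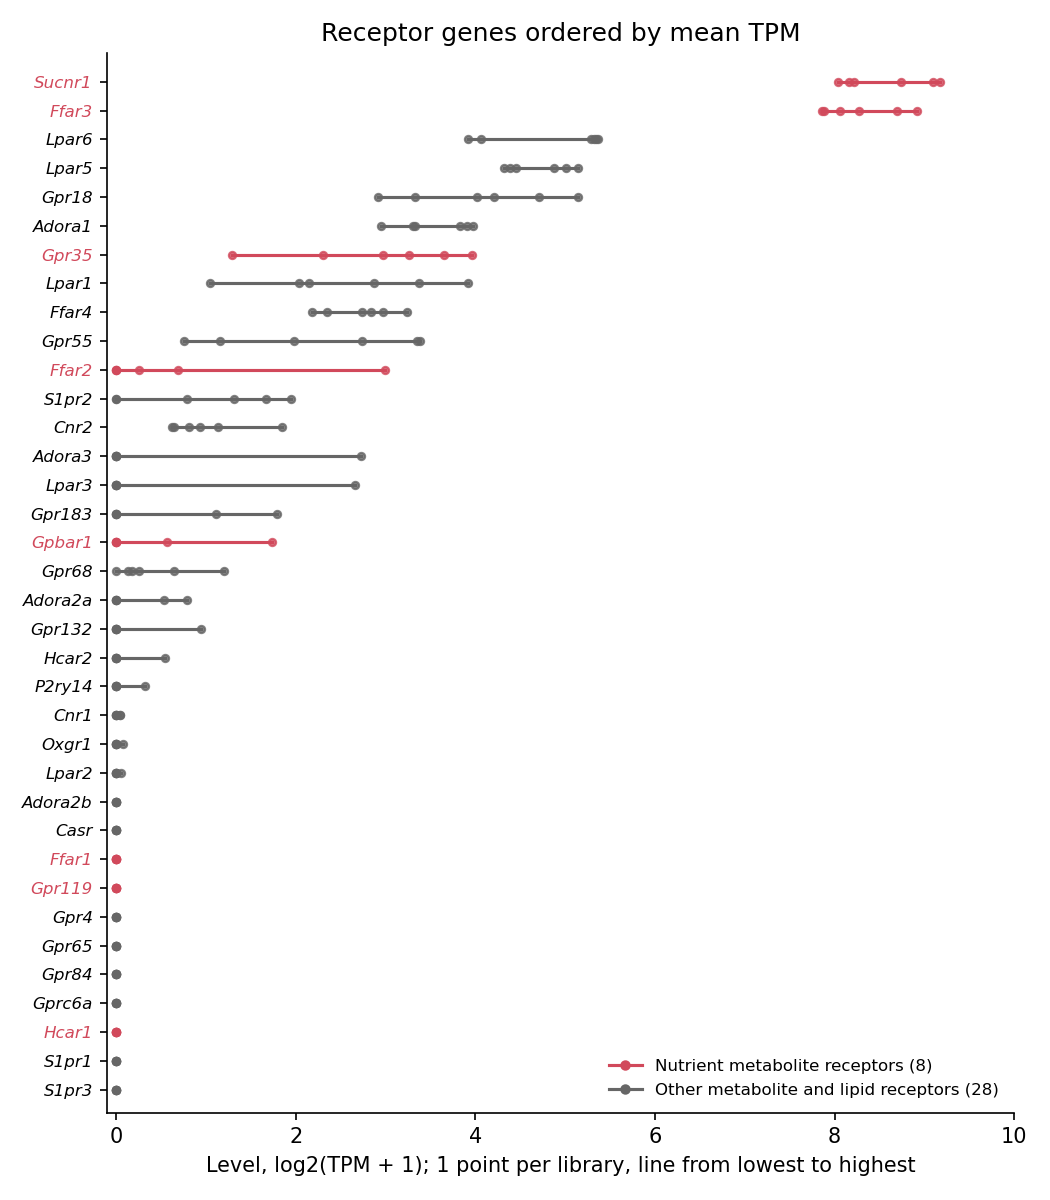
Levels (x axis, log2(TPM + 1)) of the 8 nutrient metabolite receptors in red and of 28 other receptors for metabolites and lipids in grey, ordered by mean, with 1 point per library and a line from the lowest to the highest. Sucnr1 and Ffar3 stand clear of Lpar6 and all receptors below it, while the other 6 nutrient receptors lie among the grey genes.

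Transcripts of Gi and Gs proteins, through which some of these receptors act, were present. Which cell types held them was not tested. SUCNR1 and FFAR3 are known to couple to Gi proteins, GPBAR1 and GPR119 to Gs, and FFAR1 to Gq. Of 14 G protein alpha subunit genes, 11 were above 0 in every library, against 47.2% of all genes. The list was led by Gnas (241.6 ± 73.1 TPM), which encodes the Gs subunit, Gnai2 of the Gi class (204.8 ± 67.1) and Gnat3, the gustducin gene (146.2 ± 42.0, SD, n = 6 each). Sucnr1 was 1.59 to 2.63 times Gnai2 within a library and Ffar3 was 1.34 to 1.90 times Gnai2. Gnas was thus the most abundant single gene on average, but Gnai2 exceeded it in replicates 1 (270.39 against 264.74 TPM) and 5 (161.22 against 153.69 TPM). The Gi class also holds Gnai3 (71.7 ± 21.6 TPM) and Gnai1 (17.1 ± 6.99), so these values do not rank the classes. Both members that act through Gs were at or near 0. Downstream, Plcb2, the phospholipase gene of taste signalling, had 249.4 ± 48.8 TPM and Trpm5 had 1141 ± 211 TPM (SD, n = 6).

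Genes that make, break down or carry the ligands were compared by list, without a test. Beside each count of genes above 0 in every library, here and for the ligands below, stands a share of 47.2% over all genes. For succinate, 10 of 11 genes were above 0 in every library, led by Sdhb (298.2 ± 52.9 TPM) of succinate dehydrogenase and Suclg1 (259.9 ± 44.5) of succinyl-CoA ligase. Of its carriers at the cell surface, Slc13a2 had 2.90 to 68.0 TPM and Slc13a3 was at 0 in all libraries. For lactate and short chain fatty acids, 6 of 10 were above 0 in every library, led by the lactate dehydrogenase gene Ldha (1615 ± 265 TPM) and Acss2 (32.8 ± 13.1), which activates acetate. The monocarboxylate carriers Slc16a1 and Slc5a8 had 9.0 to 20.3 and 6.03 to 24.8 TPM.

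The ligand genes of receptors listed at or near 0 could still be abundant. For long chain fatty acids, 7 of 8 genes were above 0 in every library, led by the fatty acid binding protein genes Fabp1 (7410 ± 3269 TPM) and Fabp2 (631.0 ± 345, SD, n = 6), both enterocyte markers, while the uptake gene Cd36 had 0 to 1.46 TPM. For bile acids, 5 of 6 were above 0 in every library, led by the ileal bile acid binding protein gene Fabp6 (1892 ± 493 TPM) and the exporter subunit gene Slc51b (117.5 ± 32.9), and the uptake carrier Slc10a2 had 1.26 to 27.9 TPM. Slc10a2 and Fabp6 are enterocyte genes as well. For lipid amides, 6 of 8 were above 0 in every library, led by the phosphodiesterase genes Gde1 (219.3 ± 79.1 TPM) and Gdpd1 (133.6 ± 38.1), with Plaat5 at 0 in all. The kynurenine list was the sparsest of these lists, though its share of genes at 0 was near that of the whole table. Of its 9 genes, 3 were above 0 in every library, against 47.2% of all genes. Another 3, Tdo2, Aadat and Kmo, were at 0 in all, against 32.9% of all genes. The aminotransferase genes Got2 (33.8 ± 14.1 TPM) and Kyat1 (6.54 ± 2.51) were highest.

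Reads that could also belong to another gene were a concern for Gpr35 more than for Sucnr1 and Ffar3. No member overlapped an annotated gene in GENCODE M21. Of 1638 stretches of 25 bases in Sucnr1 transcripts, 0 occurred in transcripts of another gene, and of 1848 in Ffar3 transcripts 2 did. Ffar3 shared 0 such stretches with Ffar1, Ffar2 or any other member. Gpr35 shared 204 of 4830 (4.22%) with other genes, so the authors' counting could have split some of its reads, and its values are less certain.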

How the data were processed

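RNA from sorted ileal tuft cells was sequenced in 6 libraries of 1 group after a modified SMART-Seq2 preparation. The labels add a droplet-based and a 3' polyA preparation to each library, which the methods do not mention. The authors aligned paired-end reads with Bowtie to the UCSC mm10 transcriptome, with 1 mismatch and up to 15 alignments for each read, and deposited TPM from RSEM, rounded to 2 decimals and summing to 1000000 per library. TPM keeps no read number, so depth is unknown and no count model or interval was computed. Of the 23420 genes, 13044 to 13308 per library were above 0, and Spearman correlations between libraries were 0.915 to 0.937. The libraries are labelled as mouse replicates, and p-values measure the spread between them.

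Within each library, members were compared by an exact, two-sided sign-flip permutation test over 64 sign assignments of the difference in log2(TPM + 1), with Benjamini-Hochberg adjustment. The exact Mann-Whitney test was an alternative over 924 assignments. Correlations used all 720 pairings, and 36 within sets of 3 libraries. The members, gene lists and tests were chosen with earlier results of these data known. Genes were named as the leading 2 or 3 by mean of each list, receptors with a mean of at least 1 TPM, and the 3 genes most like each member. Chga, Chgb, Tph1, Pyy, Neurod1, Gip, Insl5, Hcar2, Oxgr1, Gnai1 and Gnai3 were chosen after values had been seen. So were the other ligand carriers named, the octamer, the 25-base comparison and the ratios within libraries. Gene positions came from GENCODE M21, promoters from RefSeq on GRCm38.p6, with windows for 8 of 8 members. Software was scipy 1.17.1, pandas 2.3.3, numpy 2.4.6 and matplotlib 3.10.9 under Python 3.11.15. The alternatives are named with their effects in the closing section.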

Additional observations from a re-analysis of the deposited data

Results flagged for a closer look

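Among 34 measures, 3 had a highest library whose gap to the next, as a share of the whole range, was above Dixon's 95% critical value for 6 libraries. For independent and normally spread values, chance gives this in about 1 in 20 measures, or about 1.7 of 34. The 3 flagged genes had values at or close to 0 in most libraries, where that spread does not hold. The median of the other receptors was 0 in every library and could not be flagged. The figure of 1.7 is thus only a rough mark. Ffar2 was at 6.98 TPM in replicate 5 and between 0 and 0.61 TPM in the other libraries (gap 0.913 of the range). Gpbar1 was at 2.32 TPM in replicate 2 and between 0 and 0.48 TPM elsewhere (0.793). Cnr2, of the other receptors, was at 2.58 TPM in replicate 2 and between 0.54 and 1.19 TPM elsewhere (0.681).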

How the results depend on the processing

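Of the recomputed values, 449 kept their direction and their side of the threshold or moved by less than the spread. Pseudocounts of 0.1 and 0.01 and both rescalings act alike on the genes of a library and cannot change their order, so the 17 pairs that passed under them are no sign of stability. Sizes against genes near 0 do depend on the pseudocount, and with 0.1 and 0.01 in place of 1 Gpr35 minus Gpbar1 went from 2.52 to 4.79 and 7.03, Gpr35 minus Ffar2 from 2.25 to 4.23 and 5.99, and Ffar3 minus Ffar2 from 7.62 to 9.85 and 11.6. Among pairs of the 5 members above 0 in any library, chosen after the data were seen, 8 of 10 passed, fewer by construction. The exact Mann-Whitney test, which ignores the library, left Sucnr1 minus Ffar3 (0.29) short of the threshold at p = 0.310 and adjusted p = 0.368, and took Gpr35 minus Ffar2 (2.25) past it, at p = 0.0152 and adjusted p = 0.0223. The mean of the tuft cell markers in place of their median gave r = 0.964 for Sucnr1 and 0.953 for Ffar3, in the deposited scaling only. In each library that median is the level of Ltc4s or Il17rb alone, and the part of this in the change was not tested. The r of Gpr35 with the enteroendocrine list turned to -0.118 with a pseudocount of 0.1 and to -0.0256 when rescaled without Rn45s and Gm20594. That rescaling raises every value by construction, by 0.41 to 0.69 on the log2 scale at the median gene, and took the mean of Sucnr1 to 573.7 and of Ffar3 to 463.6 TPM. Median-of-ratios rescaling shifted the median gene by -0.16 to 0.15 and left a 2.07-fold range for Sucnr1 and 1.86-fold for Ffar3. Of the 3 genes most like each member, rescaling without Rn45s and Gm20594 kept 3 for Ffar3, 1 for Sucnr1, 1 for Ffar2 and 0 for Gpr35. With 1 library left out in turn the smallest sign-flip p is 0.0625, so these are values with no test. Sucnr1 minus Ffar3 then lay between 0.26 and 0.33, Sucnr1 minus Tas1r3 between 6.08 and 6.46, and Sucnr1 minus the most abundant other receptor between 3.40 and 3.64. Ffar2 minus Gpbar1 lay between -0.27 and 0.67, below 0 without replicate 5, where the mean of Ffar2 went to 0.16 TPM, and without replicate 2 that of Gpbar1 went to 0.096 TPM. The counts of 3 members above 0 in every library and 5 in any were the same without any 1 library. Genes were paired within each library, and no replicate numbers could be paired between groups, as the 6 libraries form 1 group. Depth is unknown, so zeros have no limit.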
